A study of Mus musculus with 3 samples.

Results

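The genes described here encode the cAMP-dependent protein kinase (PKA), the transcription factor CREB1 and the PDE4 phosphodiesterases of mouse melanocytes. They were taken by mouse symbol, giving 10 of the 22698 genes in the files. The catalytic subunits of PKA are *Prkaca* and *Prkacb*, its regulatory subunits are *Prkar1a*, *Prkar2a* and *Prkar2b*, and the phosphodiesterases are *Pde4a*, *Pde4b*, *Pde4c* and *Pde4d*. The data are RNA-seq of untreated melan-a cells, an immortalized melanocyte line of C57BL/6J background that the labels derive from Ink4a-ARF-/- mice. The 3 libraries, labelled replicates 1, 3 and 4, form a single group. All were grown with 10% fetal bovine serum, 200 nM of the phorbol ester 12-O-tetradecanoylphorbol 13-acetate and 200 pM cholera toxin, so no library shows the cells without these agents. The sources used here do not say whether the libraries came from separate cultures, so the spread between them may be technical.

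In pigment cells, the melanocortin receptor MC1R acts through a stimulatory G protein and adenylyl cyclase to raise cAMP. Binding of cAMP to the regulatory subunits of PKA frees the catalytic subunits, which phosphorylate CREB1 at cAMP response elements (CREs), among them that of the *Mitf* promoter. PDE4 enzymes hydrolyse cAMP and so limit the signal. Cholera toxin locks the stimulatory G protein in its active state, and the phorbol ester activates protein kinase C.

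Levels are the deposited FPKM (fragments per kilobase of gene, relative to library size), which the authors had adjusted between libraries by TMM, a trimmed-mean scaling, and which are rounded to 2 decimals. Library sizes after scaling were estimated at 53900000, 46900000 and 66400000 reads for replicates 1, 3 and 4. The smallest level treated as measurable was that of 3 reads, which covers counting error only. The cells carried the 7 melanocyte markers examined, with means from 22.1 FPKM for *Mitf* to 3144 FPKM for *Tyrp1*. Markers of 3 other kinds of cell were low: the summed level lay between 0.36 and 0.7 FPKM for 4 keratinocyte genes, 1.52 and 1.85 FPKM for 4 fibroblast genes, and 0.79 and 1.71 FPKM for 4 leukocyte genes, with *Krt1*, *Ptprc* and *Cd3e* at 0. *Cdkn2a*, the gene of the locus named in the label, was listed at 19.24, 16.49 and 24.32 FPKM in replicates 1, 3 and 4. Which exons are deleted is not given in the sources used here, so this value for the whole gene does not check the label.

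PKA subunits were the most abundant of the 10 genes and PDE4 genes the least. In descending order of mean, the levels were 88.8 FPKM for *Prkar1a*, 82.8 for *Prkaca*, 35.6 for *Prkacb*, 27.2 for *Prkar2a*, 6.00 for *Prkar2b*, 5.27 for *Creb1*, 3.56 for *Pde4d*, 1.42 for *Pde4b* and 0.89 for *Pde4a*, with *Pde4c* listed at or next to 0. Of the 9 neighbouring pairs in this order, 2 overlapped between libraries, namely *Prkar1a* with *Prkaca* and *Prkar2b* with *Creb1*. A level of 1 FPKM or more in every library was reached by 8 of the 10 genes, against 44.1% of all genes in the files. The exceptions were *Pde4a*, just under 1 FPKM in each library, and *Pde4c*.

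**Figure D1:**
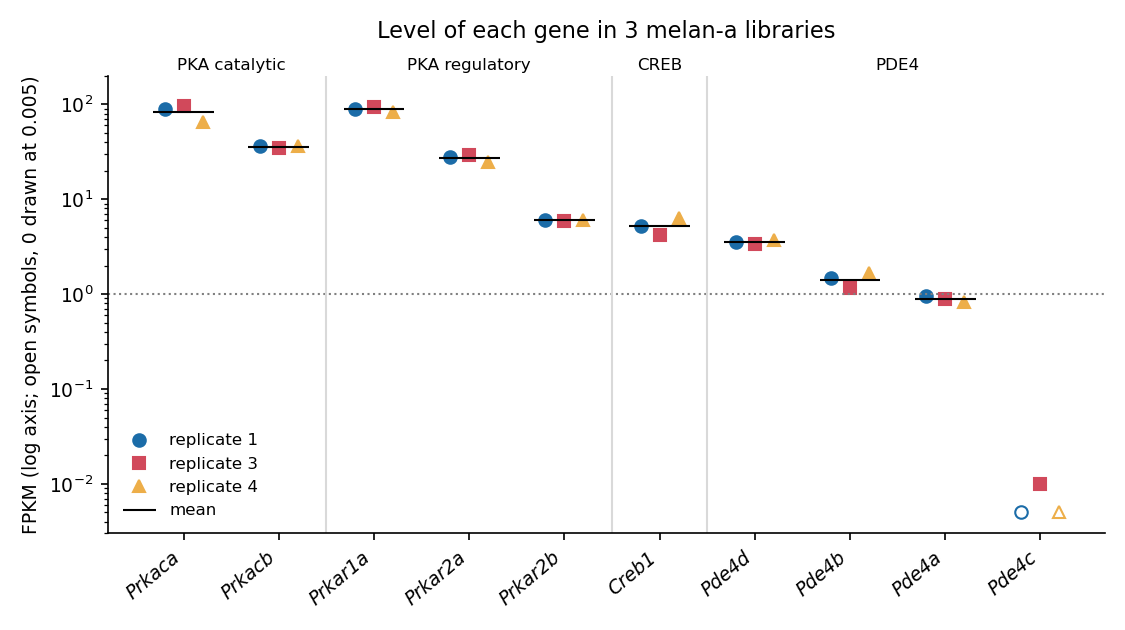
FPKM of each gene in the 3 melan-a libraries, on a log axis, with a symbol per library, a line at the mean and a dotted line at 1 FPKM. *Prkar1a* and *Prkaca* sit near 90 FPKM, *Creb1* and *Prkar2b* overlap near 6 FPKM, and *Pde4c* is at 0 in replicates 1 and 4 (open symbols) and at 0.01 FPKM in replicate 3.

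The catalytic subunit Cα was the more abundant of the pair. *Prkaca* (ENSMUSG00000005469, plus strand of chromosome 8, 86496877 to 86520344 in mm9), which encodes Cα, had 88.84, 95.31 and 64.38 FPKM in replicates 1, 3 and 4. Its mean of 82.8 ± 16 FPKM (SD, n = 3) ranked 759th of all genes, and replicate 4 stood below the other libraries. *Prkacb* (ENSMUSG00000005034, minus strand of chromosome 3, 146392543 to 146475924 in mm9), which encodes Cβ, had 36.07, 34.58 and 36.07 FPKM in replicates 1, 3 and 4. These values lay within 1.04 times of each other, and none reached the lowest *Prkaca* value. *Prkaca* was 2.46, 2.76 and 1.78 times as high as *Prkacb* in replicates 1, 3 and 4, a mean log2 ratio of 1.20 ± 0.33 (SD, n = 3). An exact two-sided sign-flip permutation test over 3 libraries cannot go below p = 0.25, which was the value of each of the 13 paralog pairs tested here, before and after Benjamini-Hochberg adjustment. The order of paralogs is therefore given by its direction and size in the libraries. Cα made up 71.1%, 73.4% and 64.1% of the summed catalytic FPKM.

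Stretches of 50 bases within exons mostly tell the pair apart, and the read length is not given in the sources used here. The longest coding transcripts of *Prkaca* and *Prkacb* were identical at 80.4% of 1055 aligned bases, and their longest identical stretch had 34 bases. Every 50-base window within the exons of *Prkacb* occurred once in mm9, and 97.12% of those of *Prkaca* did. The other 52 windows of *Prkaca* also matched the X chromosome, so a small part of its reads may have been placed elsewhere or left out.

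Among the regulatory subunits, which hold PKA inactive until cAMP binds, RIα was the most abundant in each library. *Prkar1a* (ENSMUSG00000020612, plus strand of chromosome 11, 109510719 to 109530970 in mm9) had 88.59, 94.02 and 83.67 FPKM in replicates 1, 3 and 4, and its mean of 88.8 ± 5.2 FPKM (SD, n = 3) ranked 682nd. *Prkar2a* (ENSMUSG00000032601, plus strand of chromosome 9, 108594474 to 108651843 in mm9), which encodes RIIα, had 27.62, 29.36 and 24.75 FPKM. Both genes were highest in replicate 3 and lowest in replicate 4. *Prkar2b* (ENSMUSG00000002997, minus strand of chromosome 12, 32643341 to 32746161 in mm9), which encodes RIIβ, had 6.10, 5.91 and 6.00 FPKM, the narrowest spread of the 9 genes above 0. The 3 ranges did not overlap.

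The ratio of *Prkar1a* to *Prkar2a* hardly moved between libraries, at 3.21, 3.2 and 3.38 times (mean log2 ratio 1.71 ± 0.04, SD, n = 3). The ratio of *Prkar2a* to *Prkar2b* was 4.53, 4.97 and 4.12 times (2.18 ± 0.13), and that of *Prkar1a* to *Prkar2b* 14.5, 15.9 and 13.9 times (3.88 ± 0.10). With *Prkar1b*, the remaining regulatory subunit gene, counted in (5.97, 7.12 and 4.76 FPKM), *Prkar1a* held 69.4% ± 0.7 (SD, n = 3) of the summed regulatory FPKM. *Prkar2a* held 21.3% ± 0.44, and *Prkar2b* and *Prkar1b* held 4.71% ± 0.35 and 4.62% ± 0.61. Type I transcripts thus outnumbered type II transcripts per length by 2.8, 2.87 and 2.88 times. These sums were made after the values of the genes had been seen. All 50-base exon windows of *Prkar1a*, *Prkar2a* and *Prkar2b* occurred once in mm9. The coding sequences of *Prkar2a* and *Prkar2b* were 72.1% identical, and that of *Prkar1a* was 59.7% identical to *Prkar2a* and 61.5% to *Prkar2b*.

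In the PKA holoenzyme each regulatory subunit binds a catalytic subunit. The catalytic sum of *Prkaca* and *Prkacb* was slightly below the regulatory sum in all 3 libraries. The related kinase gene *Prkx*, at 6.70, 6.36 and 6.91 FPKM in replicates 1, 3 and 4, is in neither sum. Counting it as catalytic would reverse the order in replicate 1. The summed level of *Prkaca* and *Prkacb* was 124.9, 129.9 and 100.4 FPKM in replicates 1, 3 and 4, and that of the 4 regulatory genes 128.3, 136.4 and 119.2 FPKM. The ratio of the sums was 0.974, 0.952 and 0.843. *Prkar1a* itself was 0.997, 0.986 and 1.3 times the level of *Prkaca*, so their order differed between libraries. It depends on the length assumed: per base of the longest transcript, *Prkar1a* had 116 ± 6.8 FPKM and *Prkaca* 83.6 ± 16 (SD, n = 3), and the ranges no longer overlapped.

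**Figure D2:**
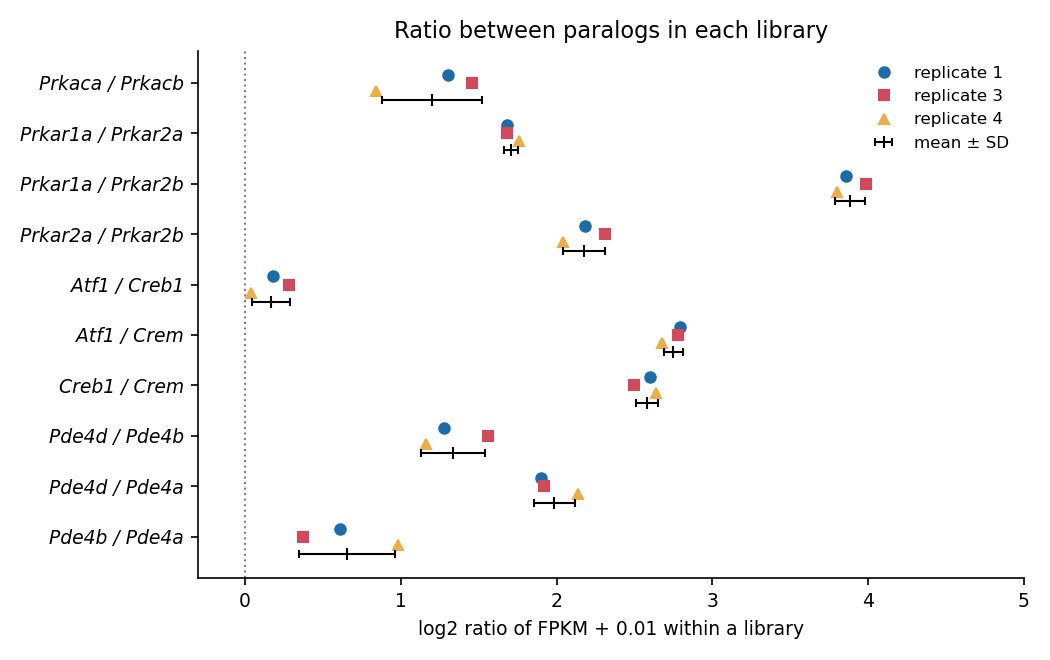
Log2 ratio of FPKM + 0.01 between paralogs within each library, for the 10 pairs without *Pde4c*, with a symbol per library and the mean ± SD in black. Every ratio lies above 0, and *Atf1* over *Creb1*, at 0.04 to 0.28, is the nearest to it.

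*Creb1* (ENSMUSG00000025958, plus strand of chromosome 1, 64579378 to 64651121 in mm9), the transcription factor that PKA phosphorylates, was expressed at a moderate level. Its values in replicates 1, 3 and 4 were 5.22, 4.19 and 6.41 FPKM, a mean of 5.27 ± 1.1 FPKM (SD, n = 3) at rank 7262. *Atf1*, its closest relative with *Crem*, had 5.93, 5.08 and 6.58 FPKM. *Atf1* was the higher in all 3 libraries, but by 1.14, 1.21 and 1.03 times, and the ranges overlapped. *Crem*, whose products include both activators and the inducible repressor ICER, had 0.85, 0.73 and 1.02 FPKM, below *Creb1* by 6.14, 5.74 and 6.28 times. *Creb1* thus held 43.7% ± 1.9, *Atf1* 49.1% ± 1.9 and *Crem* 7.22% ± 0.12 (SD, n = 3) of their summed FPKM. All 3 genes were lowest in replicate 3 and highest in replicate 4. The coding sequences of *Creb1* and *Atf1* were 67.6% identical, with no identical stretch over 20 bases.

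*Pde4d* was the most abundant PDE4 gene. Its main gene model (ENSMUSG00000021699, plus strand of chromosome 13, 109240142 to 110743669 in mm9, with 19 annotated transcripts) had 3.57, 3.40 and 3.70 FPKM in replicates 1, 3 and 4. *Pde4b* (ENSMUSG00000028525, plus strand of chromosome 4, 101760148 to 102279864 in mm9) had 1.46, 1.15 and 1.65 FPKM. *Pde4a* (ENSMUSG00000032177, plus strand of chromosome 9, 20970158 to 21017692 in mm9) had 0.95, 0.89 and 0.83 FPKM. *Pde4d* and *Pde4b* were lowest in replicate 3, whereas *Pde4a* was lowest in replicate 4. The ranges of the 3 genes did not overlap. *Pde4d* exceeded *Pde4b* by 2.45, 2.96 and 2.24 times (mean log2 ratio 1.33 ± 0.20, SD, n = 3) and *Pde4a* by 3.76, 3.82 and 4.46 times (1.99 ± 0.13). *Pde4b* exceeded *Pde4a* by 1.54, 1.29 and 1.99 times (0.65 ± 0.31).

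*Pde4c* (ENSMUSG00000031842, plus strand of chromosome 8, 73247619 to 73275085 in mm9) was listed at 0 FPKM in replicates 1 and 4 and at 0.01 in replicate 3. The last value corresponds to about 3 reads, and 3 reads on this gene came to 0.01, 0.012 and 0.0081 FPKM in replicates 1, 3 and 4. *Pde4c* was therefore not detectable above the smallest level treated as measurable, and no fold against it is given. The other PDE4 genes were read from 320 to 2950 estimated reads per library, and *Pde4d* supplied 59.7%, 62.4% and 59.9% of the PDE4 FPKM.

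A neighbouring gene model also carries the symbol *Pde4d*. This model (ENSMUSG00000074661, plus strand of chromosome 13, 110744317 to 110746171 in mm9) has 1 exon, starts 647 bases beyond the end of the main model and had 6.14, 6.25 and 7.66 FPKM. It was 1.72, 1.84 and 2.07 times as high as the main model. With both models joined by length, *Pde4d* came to 3.98 ± 0.23 FPKM (SD, n = 3), still the highest PDE4 gene. The length behind FPKM matters most for *Pde4d*, whose joined exons span 12006 bases and whose longest transcript has 4207. Per base of the longest transcript, *Pde4d* had 10.2 ± 0.43 FPKM, *Pde4b* 3.48 ± 0.62 and *Pde4a* 1.46 ± 0.099 (SD, n = 3). The order within PDE4 was the same, but *Pde4d* then stood above *Prkar2b* (6.49 ± 0.1) and *Creb1* (5.33 ± 1.1). For 15 to 17 short genes with several transcripts, reads were recalculated as FPKM times length times library size. With the joined exons as length, they fell nearer to whole reads (mean distance 0.152, 0.132 and 0.130 reads) than with the longest transcript (0.209, 0.254 and 0.244).

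PDE4 genes share much of their coding sequence, from 70.1% to 73.2% identity between pairs, but no identical stretch reached 50 bases. All 50-base exon windows of both *Pde4d* models and of *Pde4b* occurred once in mm9, as did 99.9% of those of *Pde4a* and 97.48% of those of *Pde4c*. No exon of the 10 genes overlapped an exon of another annotated gene on either strand.

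Promoters were examined because CREB1 acts through CREs, and the windows that hold such letters are shown for each gene that has them. RefSeq promoters on GRCm38.p6, from 250 bases before to 50 bases after each start, gave 24 windows for the 10 genes, and both strands were searched. The full palindrome TGACGTCA was in 1.79% of all 32851 promoters and, of the 10 genes, in *Prkar1a* only, as a single site seen from overlapping promoters. The shorter core TGACG, which the palindrome holds on both strands, was in 20.8% of all promoters and in 8 of the 24 windows. These windows belonged to 6 of the 10 genes, against 23% of all genes with a promoter. Other motifs were also searched, and their windows are not shown. The E-box CACGTG was in 3 of the 10 genes (8.09% of all genes) and the M-box CATGTG in 4 (15.9%). The TFAP2 site GCCNNNGGC was in 5 (18.5%), CCAAT in 5 (41.1%) and TATAAA in 1 (15.7%). A share above that of all genes was thus not particular to the CRE letters. Several of the 10 genes have more than 1 window, and overlapping *Prkar1a* windows hold the same sites. Capitals mark the match, written as CGTCA where the core is on the opposite strand. Each window lies at a single place in mm9.
Prkar1a, chr11:109512203-109512232, plus strand, intron of the mm9 model: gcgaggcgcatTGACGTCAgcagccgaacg
Prkar1a, chr11:109510514-109510543, plus strand, upstream of the gene: tttgcttttattCGTCAgtgttaatacagt
Prkar1a, chr11:109512064-109512093, plus strand, intron of the mm9 model: gttctagctagaTGACGacgggctaagggt
Prkaca, chr8:86496745-86496774, plus strand, upstream of the gene: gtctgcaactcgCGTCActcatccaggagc
Prkaca, chr8:86496859-86496888, plus strand, at the start of the gene: gggctgcgggggCGTCAcggacagaggact
Prkacb, chr3:146475995-146476024, minus strand, upstream of the gene: ggggcttgaccgCGTCActtccggcgcgcc
Prkar2a, chr9:108594458-108594487, plus strand, at the start of the gene: cgcggccgcgtgCGTCAcaacccgggcgcc
Pde4a, chr9:20988483-20988512, plus strand, intron: ggcacagctcgaCGTCAggctggggaggag
Pde4b, chr4:102094114-102094143, plus strand, exon: gatttggctgcaCGTCAattttctcatctg
The letters describe these windows and say nothing of binding, which was not measured in these libraries. Of the 24 windows, 9 (37.5%) held 25 or more CpG dinucleotides, against 18.4% of all promoters, and they belonged to 7 of the 10 genes. The share by gene over all genes was not calculated. The windows of *Pde4b*, *Pde4c* and *Pde4d* held 1 to 8 CpG each. *Pde4d* had only 1 window, inside an intron of its mm9 model, so its other starts were not examined. *Pde4a* had a window with 29 CpG, and its level was below those of *Pde4b* and *Pde4d*. Whether CpG content bears on level was not tested.

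The spread between libraries stayed within 1.5 times for most of these genes, as it did for most expressed genes. Over all genes at 1 FPKM or more in every library, the median ratio of highest to lowest library was 1.25. A highest library more than 1.5 times the lowest was seen in 1 of the 8 genes at 1 FPKM or more, *Creb1* at 1.53 times, against 18.8% of the 10011 genes at that level. *Prkaca* at 1.48 times and *Pde4b* at 1.43 times lay just inside the limit. Across those genes, the log2 ratio of replicate 3 to replicate 4 moved with the GC content of the joined exons (Spearman's rho 0.78 across genes, which share the libraries). *Creb1*, with 39.7% GC, had a log2 ratio of -0.61, and the median of the 414 other genes within 1 percentage point of its GC content was -0.64. For *Prkaca*, with 54.9% GC, the ratio was 0.57 and the median 0.30. *Pde4b*, with 46.2% GC, was at -0.52 beside a median of -0.23.

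With the median deviation of genes of like GC taken out, an alternative chosen after seeing the data, *Creb1* stood at 5.15, 5.24 and 5.19 FPKM, within 1.02 times. None of the 8 genes then exceeded 1.5 times, against 5.77% of all genes so treated. The ratio of highest to lowest became smaller in 5 of the 9 genes above 0 and larger in 4, such as *Prkar1a* (from 1.12 to 1.29) and *Prkar2b* (from 1.03 to 1.22). The mean log2 ratios of the pairs hardly moved. The deviations are taken from each gene's own mean over the libraries, so this step could not test the order of paralogs.

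**Figure D3:**
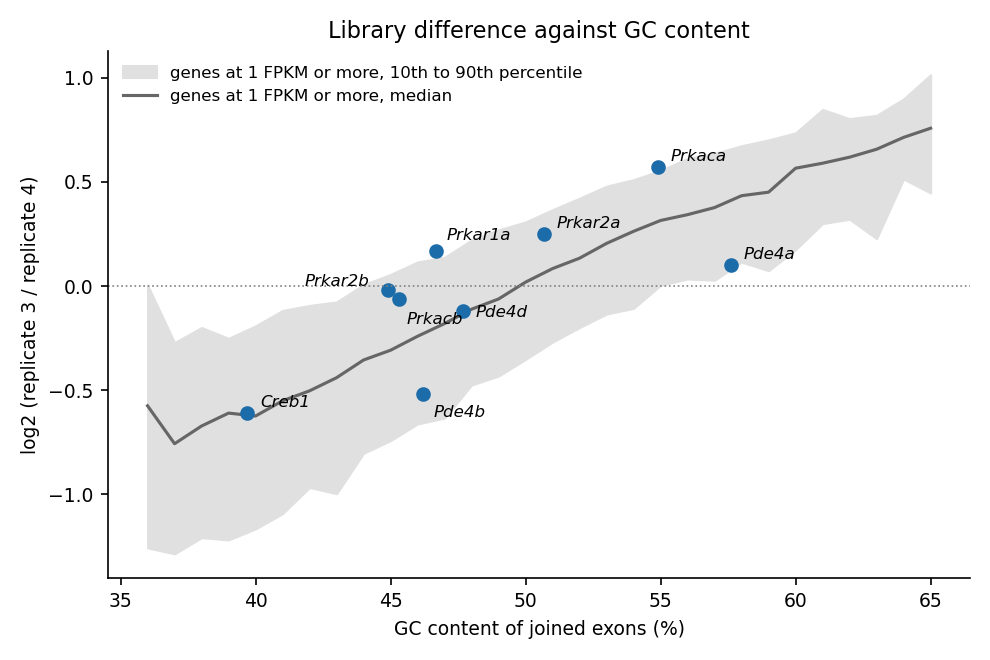
Log2 ratio of replicate 3 to replicate 4 against the GC content of the joined exons (%), for the 9 genes above 0 (points) and for genes at 1 FPKM or more in every library (line, median per percentage point; band, 10th to 90th percentile; points with fewer than 20 genes left out). *Creb1* lies on the median line, *Prkaca* and *Prkar1a* lie above it and *Pde4b* below.

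Genes around PKA were counted at 1 FPKM or more in every library, a level passed by 44.1% of all genes in the files. Among the inhibitor peptides, which block free catalytic subunits, all 3 passed 1 FPKM in every library, led by *Pkig* at 24.1 ± 4.3 FPKM (SD, n = 3), with *Pkia* at 6.93 ± 0.23 and *Pkib* at 1.84 ± 0.37. The summed catalytic level was 3.87, 3.52 and 3.4 times that of the inhibitors. *Prkx*, a kinase related to the catalytic subunits, had 6.66 ± 0.28 FPKM. Of 15 A-kinase anchoring proteins, which tether regulatory subunits to sites in the cell, 11 passed. *Akap12* stood far above the rest at 194.25, 168.88 and 203.60 FPKM, which was 2.19, 1.8 and 2.43 times the level of *Prkar1a*. *Akap2* (19.7 ± 1.6 FPKM), *Akap1* (12.2 ± 0.8) and *Akap8* (10.4 ± 3.3) came next, and *Akap4* and *Akap14* were listed at 0 in every library.

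Around *Creb1*, the 5 coactivators passed 1 FPKM in every library, from *Crebbp* at 4.56 ± 1.1 FPKM (SD, n = 3) to *Crtc2*, which docks on CREB when dephosphorylated, at 21.8 ± 1.3. The 3 salt-inducible kinases, which phosphorylate such CRTC coactivators, passed as well, led by *Sik3* at 12 ± 0.81 and *Sik2* at 10.0 ± 0.6. Of 8 other CREB family genes 3 passed, near the 44.1% share of all genes, and 6 reached 0.5 FPKM in every library. The membrane-bound factors *Creb3l2* (33.9 ± 1.6 FPKM) and *Creb3* (28.5 ± 0.12) were above *Creb1* and *Atf1*, and *Creb3l3* was listed at 0. Of 11 genes known as CREB targets 5 passed, namely *Nr4a1* (24.8 ± 1.7 FPKM), *Fos* (7.64 ± 1), *Per1* (5.23 ± 0.76), *Nr4a2* (2.36 ± 0.22) and *Sik1* (1.52 ± 0.16), the last also counted with the kinases. *Sst* and *Pck1*, targets used in neuroendocrine cells and liver, were listed at 0. The 5 of 11 targets that passed are a share near the 44.1% of all genes. The median over the list was 0.867 FPKM, against 0.277 FPKM over all genes.

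The most abundant cAMP phosphodiesterase transcript was not a PDE4 gene. Of 12 other genes whose products hydrolyse cAMP, 4 passed 1 FPKM in every library, beside 44.1% of all genes, too few genes to set the list apart. *Pde8a* had 14.61, 14.55 and 13.77 FPKM, which was 4.09, 4.28 and 3.72 times *Pde4d*, and *Pde11a* had 6.30, 5.59 and 6.74 FPKM, or 1.76, 1.64 and 1.82 times *Pde4d*. Per base of the longest transcript, *Pde8a* (15.2 ± 0.5 FPKM, SD, n = 3) stayed above *Pde4d* (10.2 ± 0.43), but *Pde11a* (7.72 ± 0.72) was below it, so the order of *Pde11a* and *Pde4d* depends on the length assumed. As deposited, *Pde1b* had 1.84, 2.14 and 1.77 FPKM, above *Pde4b* in each library. *Pde1c*, at 1.25, 1.0 and 1.59 FPKM, overlapped *Pde4b*, and *Pde3a* was listed at 0. Per base of the longest transcript, *Pde4b* had 3.58, 2.82 and 4.05 FPKM in replicates 1, 3 and 4. The order of *Pde1b* and *Pde1c* against *Pde4b* thus also depends on the length assumed. Summed, the 12 genes had 4.25, 4.49 and 4.07 times the FPKM of the PDE4 genes, and 1.88, 1.97 and 1.8 times per base of the longest transcript. Of 6 PDE4 binding partners 5 passed, led by the scaffold RACK1, listed as *Gnb2l1*, at 663 ± 104 FPKM, and the arrestin genes *Arrb1* and *Arrb2* had 20.5 ± 3.4 and 15.9 ± 1.3 FPKM.

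Of the other cAMP effectors, the exchange factor genes *Rapgef4* (18.83, 14.63 and 24.96 FPKM) and *Rapgef3* (10.82, 10.99 and 9.71 FPKM) passed, and *Bves* and *Popdc3* were listed at 0. Upstream, *Gnas*, the stimulatory G protein on which cholera toxin acts, had 138 ± 9.6 FPKM and *Mc1r* 20.8 ± 2.8 (SD, n = 3). Of 10 adenylyl cyclases 4 passed, again near the share of all genes, led by *Adcy7* at 38.1 ± 2.8 FPKM, with *Adcy6* at 11.2 ± 1.8, *Adcy3* at 5.92 ± 1.3 and *Adcy9* at 4.69 ± 0.77, and *Adcy4* and *Adcy5* were listed at 0.

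**Figure D4:**
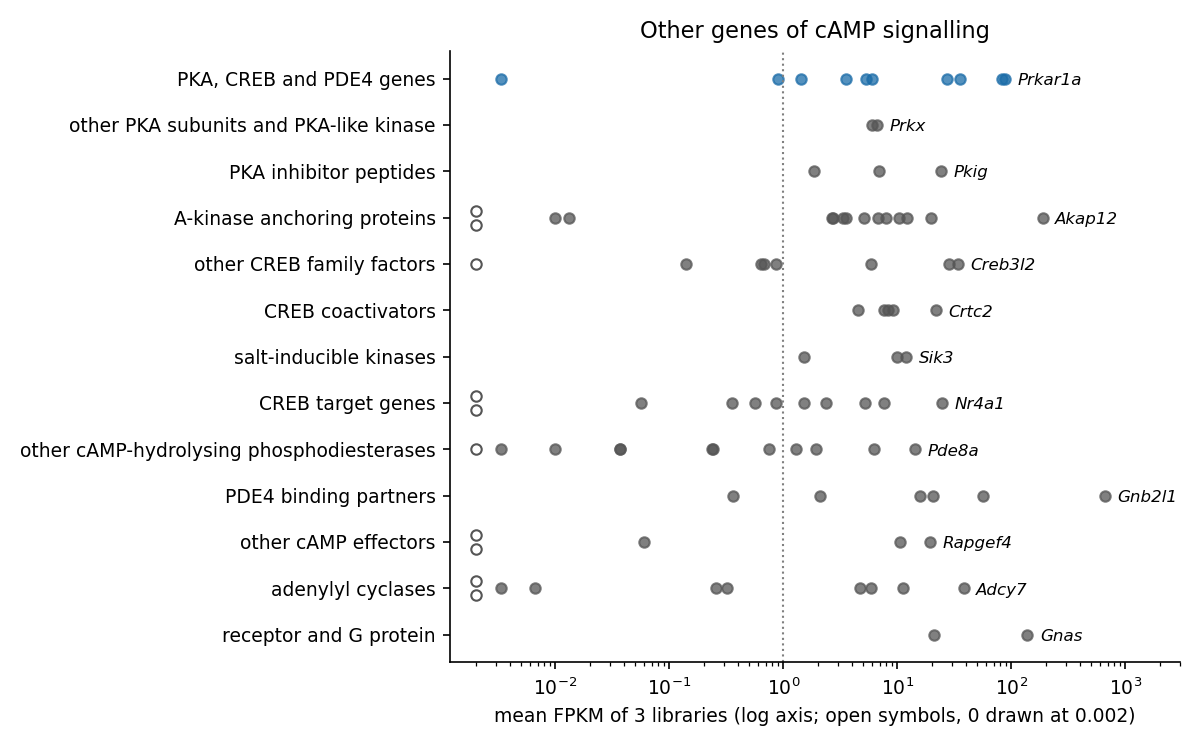
Mean FPKM over the 3 libraries, on a log axis, for the PKA, CREB and PDE4 genes (blue) and for other genes of cAMP signalling by list (grey), with the highest gene of each list named and a dotted line at 1 FPKM. *Akap12* at 189 FPKM and *Gnb2l1* at 663 FPKM exceed *Prkar1a* at 88.8 FPKM, and 4 of the 12 other phosphodiesterases lie above 1 FPKM.

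For *Creb1* and for the highest PKA catalytic, PKA regulatory and PDE4 gene, the genes with the most similar levels were found by Euclidean distance of log2(FPKM + 1) over the 3 libraries. *Prkar1a* was nearest to *Bub3* (distance 0.019), *Eif4b* (0.020) and *Sord* (0.025). *Prkaca* was nearest to *Ctdnep1* (0.086), *Cdc34* (0.109) and *Lman2* (0.125). That these were lowest in replicate 4 too follows from choosing them on the same values. *Creb1* was nearest to *Cdkl2* (0.024), *Plk4* (0.029) and *Clpx* (0.038), and *Pde4d* to *Atg2b* (0.024), *Bckdhb* (0.031) and *Hexim2* (0.036).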

How the data were processed

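Polyadenylated RNA of 3 melan-a samples was sequenced as strand-specific libraries (TruSeq chemistry). The authors trimmed the reads and aligned them to mm9 with STAR 2.3.0e. Reads of rRNA were dropped, and HTSeq 0.5.3p3 counted the others per Ensembl gene. The submitters' processing notes also name CASAVA 1.8.2, SAMtools and edgeR, whose role is not given. The deposited FPKM values carry a TMM (trimmed-mean) scaling, and how counts were turned into FPKM, the gene length used and the read length are not given in the sources used here. FPKM are not counts, so no count test was run.

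Symbols were matched for 22324 of 22698 identifiers. The gene with the most transcripts stood for *Pde4d*, which has 2. Positions and joined exons came from the GENCODE M1 annotation of mm9. Library sizes were estimated from genes of up to 600 bases with 1 transcript, whose FPKM times length must give whole reads (120, 116 and 145 genes, with a mean distance of 0.053, 0.053 and 0.074 reads from a whole number against a median of 0.286, 0.268 and 0.274 over all sizes tried). On simulated data, sizes of 45000000 and 60000000 reads came out as 45200000 and 60000000. Paralogs were compared by an exact two-sided sign-flip permutation test on log2(FPKM + 0.01), with Benjamini-Hochberg adjustment over 13 pairs, and the pseudocount shrinks ratios of low genes. Library differences were set beside those of genes within 1 percentage point of GC content, a step tested on simulated data. The genes and lists were chosen with earlier results of these data known. Named were the 10 genes, *Atf1*, *Crem*, *Cdkn2a*, up to 4 genes with the highest mean in each list, those at 0 in every library, and the 3 nearest to the highest of the 10 genes in each family. *Crebbp* and *Mitf*, the low ends of 2 lists, were named after their values were seen. Alternatives were other scalings, pseudocounts, thresholds, lengths and each library left out. Some genes of 2 lists are not reported here. Protein sequences were not used here. Scripts used Python 3.11.15, pandas 2.3.3, matplotlib 3.10.9 and numpy 2.4.6.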

Additional observations from a re-analysis of the deposited data

How the results depend on the processing

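Each of the 120 recalculated paralog ratios had the direction reported, but most of them could not have reversed. They covered pseudocounts of 1 and 0.1, medians, each library left out and, chosen after seeing the data, the longest transcript as length, the other *Pde4d* model and GC content. Each pair had the same order in all 3 libraries, so pseudocounts, medians and leaving out a library could not reverse it. Taking out GC content leaves mean ratios nearly unchanged by construction. Only the longest transcript and the other *Pde4d* model could have changed the direction, and they did not. Each of the 60 mean levels recalculated as medians, with rescaled libraries or with a library left out stayed within 1 SD. Per base of the longest transcript, chosen after seeing the data, 6 mean levels moved by more than 1 SD, to 44.7 FPKM for *Prkacb*, 116 for *Prkar1a*, 6.49 for *Prkar2b*, 1.46 for *Pde4a*, 3.48 for *Pde4b* and 10.2 for *Pde4d*. Pairs with *Pde4c* could not be recalculated with both genes above 0.1 FPKM. The count of genes at 1 FPKM or more in every library was 9 at a threshold of 0.5 and 7 at 2. The 1 gene over 1.5 times between libraries, *Creb1*, became 2 with libraries rescaled to the mean sum, as *Pde4b* joined it at 1.58 times, and 0 with GC content taken out. It ranged from 0 to 1 with a library left out, being 0 without replicate 3 or without replicate 4. At 0.5 FPKM, 6 other CREB family genes passed in place of 3. No paired analysis was possible because the libraries form a single group. Depth limits only *Pde4c*, and 3 libraries limit every test to p = 0.25 at the lowest (exact permutation). Levels are of transcripts, and protein or kinase activity was not measured.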
